A study of Brassica napus with 33 samples.

Results

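Chromosome C02 of *Brassica napus* (oilseed rape) carried 5031 of the 91060 small RNA clusters that have a position on the Express617 assembly, which is 5.52% of them. A small RNA cluster is a stretch of the genome on which small RNA reads pile up, and every cluster placed on C02 was taken, whatever its level. The C02 clusters ran from base 3665 to base 61544466, their median length was 669 bp (700 bp on the other 18 chromosomes), and there were 81.7 of them per Mb. The study sequenced small RNAs from 33 libraries, 3 pools of plants in each of 11 groups. The F1 (Express617 as mother, G3D001 as father) was sampled as leaves at BBCH16, the stage with 6 unfolded leaves, and as ovules of selfed F1 plants at 15 and 30 days after pollination (OS15 and OS30). The F0, which exists in ovules only, was made by placing G3D001 pollen on Express617 pistils. G3D001, the semi-winter, semi-synthetic father, and Express617, the winter-type mother, were sampled as leaves and as selfed ovules at the same times. An OS15 or OS30 sample of a selfed F1 therefore holds seed of the next generation inside F1 maternal tissue, whereas an F0 sample holds F1 seed inside Express617 maternal tissue. In bulk ovules, fewer cells of a type and fewer small RNAs per cell cannot be told apart.

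Plant small RNAs are cut from longer precursors by Dicer-like enzymes. MicroRNAs come from hairpins and act on messenger RNAs, whereas most small interfering RNAs (siRNAs) come from transposons and other repeats and guide RNA-directed DNA methylation to the loci that make them. Developing seeds are rich in such siRNAs, and many of them are made by the maternal tissues that surround the embryo. *B. napus* is an allopolyploid, so that each C chromosome has a homoeologous counterpart in the A genome, which for much of C02 is A02. Exchanges between homoeologous chromosomes are known in this species, above all in resynthesised lines.

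The reads on clusters numbered 12635700 to 27070031 per library (median 17543495), and the least read C02 cluster had 347 reads over all 33 libraries. Because the reads of all genotypes were aligned to the Express617 assembly, a G3D001 small RNA whose sequence differs from that assembly may not be counted, and a lower count cannot be told apart from such a loss. Some libraries stood apart. The scaling (TMM) factors of the 3 OS30 G3D001 libraries were 0.336 to 0.383, against 1.21 to 1.49 in the other OS30 libraries, and scaling to total counts instead put the log2 fold change of the median cluster (G3D001 over Express617) at -2.02 in OS30, 0.17 in leaves and 0.04 in OS15. The levels of C02 and its bins are therefore given relative to the other chromosomes of the same library, which such a scaling does not move. Shares of near-absent clusters, tests of counts and CPM values do move with the scaling. The 3 G3D001 ovule libraries also disagreed with one another on C02. In OS30 the median difference between the highest and the lowest G3D001 library was 1.18 log2 units per C02 bin of 1 Mb, whereas it was between 0.14 and 0.34 on each of the other 18 chromosomes. In OS15 that difference was 0.88 on C02 and 0.24 to 0.42 elsewhere, and in leaves 0.39 on C02 and 0.19 to 0.45 elsewhere. Each G3D001 result is therefore given library by library.

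The first question was how far C02 as a whole departed from the rest of the genome in each genotype. For each library, the relative level of C02 was the median over clusters of the log2 ratio to the Express617 mean of the stage, minus the same median over the clusters of the other chromosomes. Clusters entered with a mean of at least 20 counts in the libraries of a stage, which 612 C02 clusters reached in leaves, 726 in OS15 and 4797 in OS30. In leaves the level was -0.43, -0.45 and -0.42 in F1, -0.85, -0.92 and -0.76 in G3D001, and 0.02, -0.02 and 0.01 in Express617. The 3 groups did not overlap, and F1 lay between its parents. In OS15 it was -0.29, -0.28 and -0.31 in F1, -0.02, 0.03 and 0.03 in F0, and -1.10, -0.43 and -1.09 in G3D001. The F0 overlapped Express617 (mean 0.01 ± 0.03 in F0 and 0.01 ± 0.02 in Express617, SD, n = 3 each; two-sided exact permutation p = 0.5). Paired by replicate number, F0 was above Express617 by 0.0021, 0.0099 and 0.0099 in the 3 pairs (two-sided exact sign-flip permutation p = 0.25, the smallest that 3 pairs can give). In OS30 it was -0.62, -0.61 and -0.64 in F1, -0.25, -0.44 and -0.41 in F0, and -0.86, -0.44 and -1.52 in G3D001. Every F1 and F0 library was below every Express617 library in OS30, while G3D001 replicate 2 was higher than the 3 F1 libraries. Each of the other comparisons with Express617 had an exact permutation p of 0.1, which is the smallest that 3 against 3 libraries can give. A02 moved the opposite way in the same libraries, with levels of 0.68, 0.64 and 0.65 in G3D001 leaves and of 0.51, 0.33 and 0.65 in OS30 G3D001 ovules. How reads that match both of these homoeologues were placed is not given in the sources used here, so the A02 and C02 counts may not be independent, and this was not tested. The study left A02 and C02 out of its figures of subgenome expression. As its reason it cites earlier work that saw A02 duplicated and C02 deleted as whole chromosomes in G3D001. The study also called copy number from genomic reads of a G3D001 ovule replicate, and the only large-scale deletions it reports there lie on C01. For C02 that report differs from the cited earlier work. Which G3D001 pool gave these reads is not stated in the sources used here. The copy number of C02 in each of the pools was not tested here.

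The chromosome was then read in bins of 1 Mb. In OS30, where all 62 bins held at least 10 clusters, G3D001 lay under -1 in all 3 libraries in 10 bins. These were the 6 bins from 1 to 7 Mb, the 3 bins from 10 to 13 Mb and the bin from 35 to 36 Mb, and they hold 833 of the 5031 clusters. Of the 709 such bins on the other chromosomes, 2 were as low (1.56% of all bins). By the median over clusters, the lowest bin was that from 11 to 12 Mb, at -2.14, -1.67 and -2.02 in the 3 G3D001 libraries. It was followed by the bin from 10 to 11 Mb at -1.95, -1.95 and -1.88 and the bin from 1 to 2 Mb at -1.83, -1.80 and -1.77. The summed reads of a bin can go the other way, and those from 11 to 12 Mb were higher in G3D001 than in Express617 (tested below). In these 3 bins the pools that disagreed elsewhere on C02 had similar values. The 10 bins were chosen for low values in all 3 of these libraries, so agreement inside them follows in part from the choice. The edge near the start of the chromosome was sharp in OS30. The first 0.5 Mb of the chromosome was at 0.02, -0.25 and 0.09 in G3D001, whereas the run from 0.5 to 6 Mb, with 402 clusters, had median levels of -1.36, -1.49 and -1.51. The other long run at the same resolution spanned 10 to 13.5 Mb (266 clusters) at -1.67, -1.72 and -1.98. The stretch from 6 to 6.5 Mb lay just outside the threshold at -0.94, -0.92 and -1.16, and the bin from 5 to 6 Mb just inside it at -1.29, -1.05 and -1.10.

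Outside those 10 bins the G3D001 pools parted. Replicate 3 was under -1 in 58 of the 62 OS30 bins, replicate 1 in 21 and replicate 2 in 10, and replicate 3 was the lowest library in 55 bins and replicate 2 the highest in 54. In 48 bins the 3 libraries fell on both sides of -1. Over the clusters outside the 10 bins the level was -0.76, -0.31 and -1.49 in G3D001 replicates 1, 2 and 3, against -1.52, -1.50 and -1.68 inside them. The bins were chosen on these values, so this contrast is a description. Without replicate 2, the OS30 bins under -1 in every remaining G3D001 library numbered 21. The 3 highest bins were those from 50 to 51 Mb (0.46, 0.18 and 0.62), from 26 to 27 Mb (0.38, 0.76 and -0.11) and from 57 to 58 Mb (0.15, 0.19 and -0.50).

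**Figure D1:**
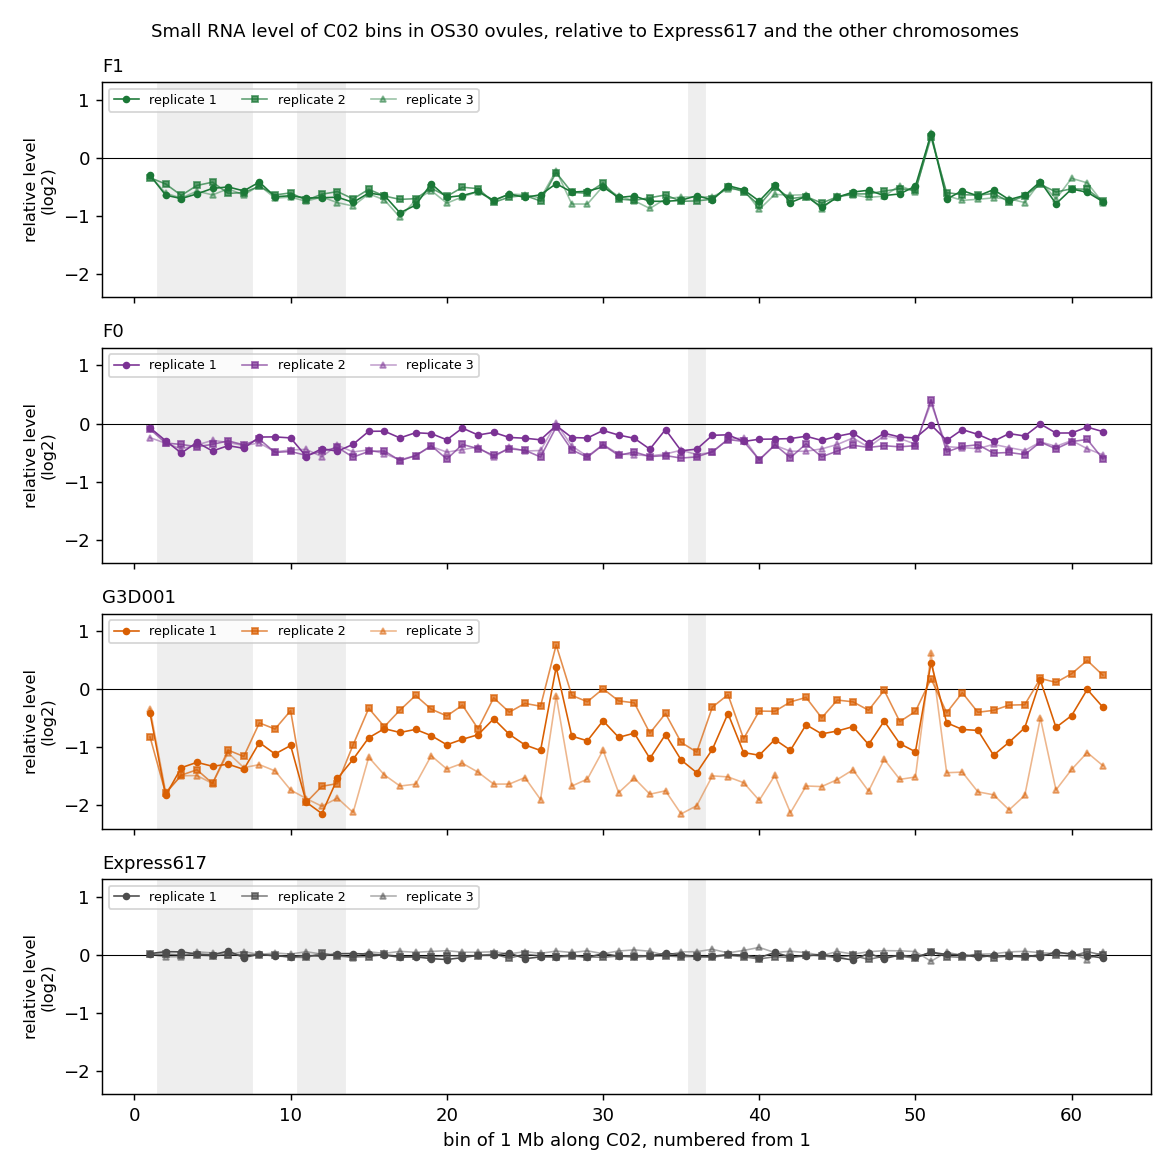
Relative level (log2, vertical axis) of the bins of 1 Mb along C02 (horizontal axis, numbered from 1) in each OS30 library, with F1, F0, G3D001 and Express617 in panels from top to bottom and the 10 bins under -1 in all 3 G3D001 libraries shaded. F1 runs as a near-level line, whereas the G3D001 libraries meet in the shaded bins and separate elsewhere, replicate 3 being the lowest in 55 of 62 bins. The shaded bins were chosen on these G3D001 values.

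In OS15, 38 bins held at least 10 clusters, and 7 of them were under -1 in all 3 G3D001 libraries, against 3 of 615 on the other chromosomes (1.53% of all bins). These 7 bins began at 2, 3, 6, 12, 17, 34 and 38 Mb. The lowest was the bin from 38 to 39 Mb at -4.60, -4.34 and -4.64, and the bin from 3 to 4 Mb was at -3.10, -3.04 and -2.92. Near the start of the chromosome the drop lay further in than in OS30. The stretch from 1 to 1.5 Mb was at 0.09, 0.07 and -0.22 (5 clusters), and that from 1.5 to 2 Mb at -2.59, -3.05 and -2.46 (9 clusters). In the bin from 22 to 23 Mb, by contrast, replicates 1 and 3 stood at -3.86 and -4.29 and replicate 2 at -0.58. Replicate 2 was the highest G3D001 library in 30 of the 38 bins, and without it 24 bins were under -1. The 3 highest bins were those from 50 to 51 Mb (0.28, 0.42 and 0.81), from 29 to 30 Mb (0.40, 0.52 and 0.14) and the first bin, from 0 to 1 Mb (-0.27, -0.50 and 0.22).

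In leaves 26 bins could be read, and 9 of them were under -1 in all 3 G3D001 libraries, against 1 of 637 elsewhere (1.51% of all bins). They began at 3, 14, 21, 30, 36, 41, 43, 49 and 55 Mb. The lowest were those from 41 to 42 Mb (-4.01, -3.90 and -4.64), 55 to 56 Mb (-3.998, -3.43 and -3.46) and 14 to 15 Mb (-3.09, -3.49 and -3.08). In contrast to the ovules, the 3 leaf libraries of G3D001 were close together, with 13, 14 and 15 bins under -1. The highest leaf bins were those from 5 to 6 Mb (1.29, 0.63 and 1.21), 50 to 51 Mb (0.35, 0.62 and 0.26) and 0 to 1 Mb (-0.53, 0.03 and -0.32). The bin from 50 to 51 Mb was thus above the other chromosomes in all 9 G3D001 libraries. The bin from 3 to 4 Mb was under -1 in all 9, with leaf values of -1.62, -1.32 and -1.12. Leaf and ovule bins do not hold the same clusters, because a cluster enters a stage only with enough counts there.

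The low bins of OS30 stood higher over the clusters that also passed the count filter in leaves, and so did the other chromosomes. Inside the 10 bins 89 clusters did so, with OS30 G3D001 levels of -0.88, -0.44 and -0.83, against -1.59, -1.56 and -1.77 for the 691 clusters that passed in OS30 but not in leaves. In the other C02 bins the clusters passing at both stages were at 0.09, 0.38 and -0.42 (463 clusters), and on the other chromosomes at 0.47, 0.56 and 0.46. Clusters of the other chromosomes that passed in OS30 but not in leaves were at -0.08, -0.10 and -0.07. Levels over clusters passing at both stages, also those of single bins, thus have to be read against a raised baseline. Among the single bins, those from 3 to 4 Mb (-1.33, -1.77 and -1.42) and from 4 to 5 Mb (-1.53, -1.97 and -1.88) stayed under -1 over such clusters, 9 and 11 in number. The bin from 11 to 12 Mb, the lowest over all its clusters, was at -0.34, -0.17 and -0.64 over 10 such clusters, and the bin from 35 to 36 Mb at -0.92, 0.03 and -0.89 over 9. The bins from 2 to 3 Mb (0.86, 1.55 and 0.74 over 10 clusters) and from 5 to 6 Mb (1.35, 1.86 and 0.39 over 16) stood above 0.

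**Figure D2:**
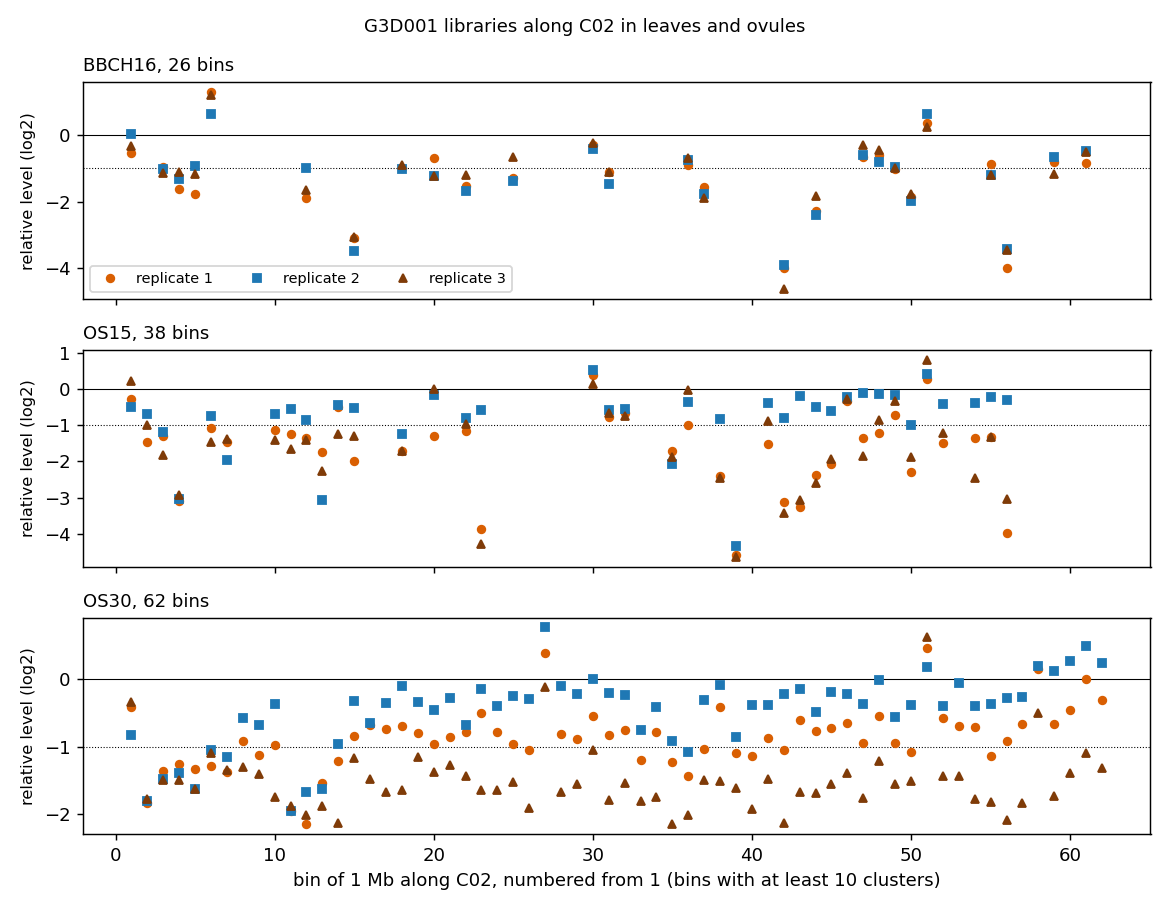
Relative level (log2, vertical axis) of C02 bins of 1 Mb with at least 10 clusters (horizontal axis, bins numbered from 1) in the 3 G3D001 libraries of BBCH16, OS15 and OS30, with a dotted line at -1. The leaf libraries lie close together, and replicate 2 is the highest library in 30 of 38 OS15 bins and 54 of 62 OS30 bins.

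The counts summed per bin were also tested, and they did not always go the way of the median levels. With edgeR's quasi-likelihood test and Benjamini-Hochberg adjustment over 776 bins, 56 of the 62 C02 bins were lower in G3D001 than in Express617 in leaves (38.4% of all bins were), 31 in OS15 (25%) and 16 in OS30 (8.38%). Higher in G3D001 were 0 of the C02 bins in leaves (12.2% of all bins), 7 in OS15 (32.0%) and 24 in OS30 (77.1%). For the 0 in leaves, DESeq2 also called 0, and 441 of the 776 bins had an unadjusted p under 0.05 in either direction. The median log2 fold change of the C02 bins was -0.96 in leaves, -0.80 in OS15 and 0.19 in OS30, beside medians over all bins of -0.15, 0.05 and 0.83. The OS30 bins thus have to be read against a genome-wide shift of 0.83, and scaled on the bin counts themselves, an alternative chosen after seeing the data, 40 C02 bins were lower in OS30, beside 393 of all 776 bins. Among the 10 bins with low OS30 levels, those from 5 to 6 Mb (log2 fold change 0.68), 11 to 12 Mb (1.28) and 35 to 36 Mb (3.31) were called higher in G3D001 (edgeR adjusted p = 0.00162, 0.000694 and 3.04e-08). The bin from 1 to 2 Mb was not called (-0.26, edgeR adjusted p = 0.0739), and the others were called lower. In leaves the bin from 5 to 6 Mb, the highest by level, was called lower (-0.43, edgeR adjusted p = 0.02895).

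The next question was how the F1 and the F0 followed the father along C02. In the OS30 F1 the level was nearly the same inside and outside the 10 bins, at 64.4, 65.6 and 63.5% of Express617 inside and 65.0, 65.7 and 64.3% outside. The G3D001 level was 34.9, 35.5 and 31.3% inside and 59.0, 80.6 and 35.6% outside. The midpoints between each G3D001 library and Express617 were 67.4, 67.7 and 65.7% inside the bins, close to the F1. Outside, the midpoints were 79.5, 90.3 and 67.8%, all above the F1. The midpoints use the G3D001 values on which the bins were chosen, so their difference between inside and outside is a description. The F1 was below 0 in all 3 libraries in 61 of the 62 OS30 bins, and the exception was the bin from 50 to 51 Mb, at 0.41, 0.35 and 0.42.

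The F0 behaved differently between its pools. Inside the 10 bins the OS30 F0 was at 73.9, 74.5 and 76.8% of Express617, and outside them at 86.0, 73.6 and 75.2%. Replicate 1 was the highest F0 library in 48 of the 52 other bins but in 4 of the 10. In the bin from 50 to 51 Mb the order turned round, with -0.02 in replicate 1, against 0.41 and 0.35 in replicates 2 and 3. In OS15 the F0 was at 98.6, 104.6 and 102.3% of Express617 inside and at 99.0, 101.7 and 102.3% outside, and the F1 was at 80.9, 80.2 and 77.7% inside and 82.8, 82.9 and 81.1% outside. In leaves the F1 was at 71.0, 75.7 and 74.96% inside and 74.3, 72.7 and 74.8% outside, while G3D001 was at 40.4, 52.3 and 48.7% inside and 57.0, 53.1 and 60.9% outside.

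**Figure D3:**
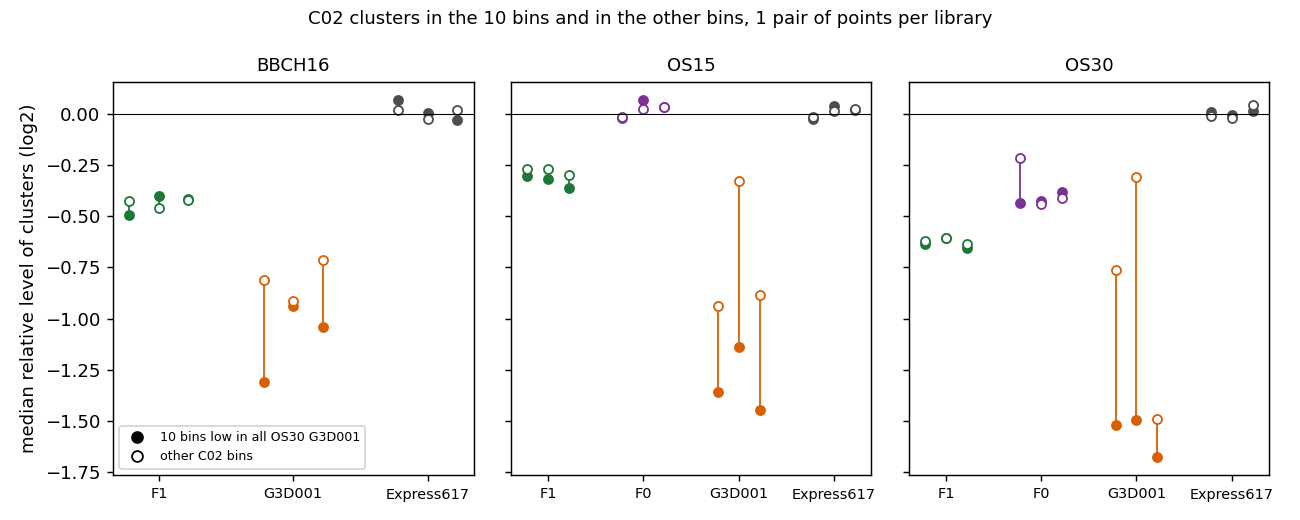
Median relative level (log2, vertical axis) of C02 clusters inside the 10 bins that were under -1 in all OS30 G3D001 libraries (filled points) and in the other bins (open points), 1 pair per library, by genotype and stage. The filled points were chosen on the OS30 G3D001 values, so the gap in that group is a description, whereas the F1 pairs nearly coincide in every stage.

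The low level of G3D001 on C02 came in part from clusters that were almost empty. Among the clusters with an Express617 mean of at least 20 counts, those under 10% of the Express617 level were counted in each library. That limit was set on TMM-scaled CPM, so the shares depend on the scaling of a library, above all in OS30 G3D001. Such a choice favours clusters that are high in Express617, and the other chromosomes, treated alike, show what it gives by itself. In leaves, 29.7, 32.4 and 31.1% of the 781 C02 clusters were near-absent in the 3 G3D001 libraries, against 7.46, 7.70 and 7.36% of 10513 on the other chromosomes (9.0, 9.41 and 9.0% of all). In OS15 the share was 37.4, 14.5 and 37.8% of 818 clusters on C02, against 10.7, 7.71 and 10.7% of 12302 elsewhere (12.4, 8.14 and 12.4% of all). In OS30 it was 11.2, 11.6 and 28.1% of 4696 clusters, against 4.32, 6.47 and 5.88% of 69804 (4.76, 6.8 and 7.28% of all). The hybrids had few such clusters, at most 1.47% of C02 in any F1 library and 0.15% in any F0 library. The F1 maximum was that of OS15 replicates 1 and 3, with 0.93 and 0.84% elsewhere. The F0 maximum was that of OS30 replicates 2 and 3, with 0.086 and 0.076% elsewhere. The other F0 libraries went the other way, with 0.021% on C02 and 0.036% elsewhere in OS30 replicate 1. In OS15 F0 the share was 0% on C02 and 0.065, 0.016 and 0.024% elsewhere. In OS30 the near-absent share inside the 10 bins was 29.1, 31.5 and 29.8% in the G3D001 libraries, whereas outside them it was 7.69, 7.69 and 27.7%. In OS15 the corresponding shares were 40.2, 36.6 and 39.6% inside and 36.7, 9.02 and 37.3% outside. The bins were chosen on OS30 G3D001 values, so the OS30 gap is a description. In OS15 replicate 2 alone had a much lower share outside the bins. The OS15 libraries were not used in that choice, but they carry the same plot codes as the OS30 libraries of the same number. They are therefore no independent check.

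The clusters near-absent in all 3 G3D001 leaf libraries were followed into the ovules. The choice had not used the ovule libraries, though those of G3D001 carry the same plot codes as its leaf libraries. The clusters of this set numbered 186 of the 781 C02 clusters (23.8%) and 550 of the 10513 clusters elsewhere (5.23%). In the leaf F1 the C02 clusters of this set had median levels of 53.4, 47.6 and 49.5% of Express617. In OS15, 85 of the 186 had at least 20 counts in Express617, and their medians were 43.8, 45.3 and 39.8% in F1, 94.9, 100.4 and 100.2% in F0, and 2.26, 37.9 and 2.08% in G3D001. In OS30, with 180 clusters, the medians were 43.6, 45.8 and 42.1% in F1, 72.3, 56.9 and 57.6% in F0, and 32.5, 55.4 and 4.21% in G3D001. G3D001 replicate 2, and in OS30 also replicate 1, thus had small RNAs from C02 clusters that were almost silent in leaves, and replicate 3 had few. The OS30 G3D001 percentages of this set, also those by position below, depend on the scaling of these libraries, as CPM values do. The same set on the other chromosomes reached 1.80, 8.30 and 1.21% in OS15 G3D001 and 15.5, 21.1 and 5.08% in OS30 G3D001, and the F0 medians there (71.1, 58.1 and 58.1% in OS30) were close to those of C02.

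The set was then split by position, although the 10 bins were chosen on OS30 G3D001 levels, so that the OS30 G3D001 values are a description. In OS30, the 34 clusters inside the 10 bins had G3D001 medians of 7.83, 3.17 and 3.96%, against 36.4, 79.1 and 4.24% for the 146 clusters in the other bins. The F0 medians were 62.9, 59.0 and 56.9% inside and 74.9, 56.2 and 57.7% outside. In OS15, the 12 clusters inside the bins had G3D001 medians of 1.85, 0 and 0%, against 2.26, 46.1 and 2.10% for the 73 outside. Replicate 2 alone differed much between the positions. The choice had not used the OS15 libraries, but they carry the same plot codes as the OS30 libraries of the same number. The OS15 contrast is therefore no independent check. The chromosome medians of the other 18 chromosomes and C02 ran from 2.34 to 37.9% in OS15 G3D001 replicate 2 and from 4.51 to 55.4% in OS30 replicate 2, and C02 gave the highest value in both.

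**Figure D4:**
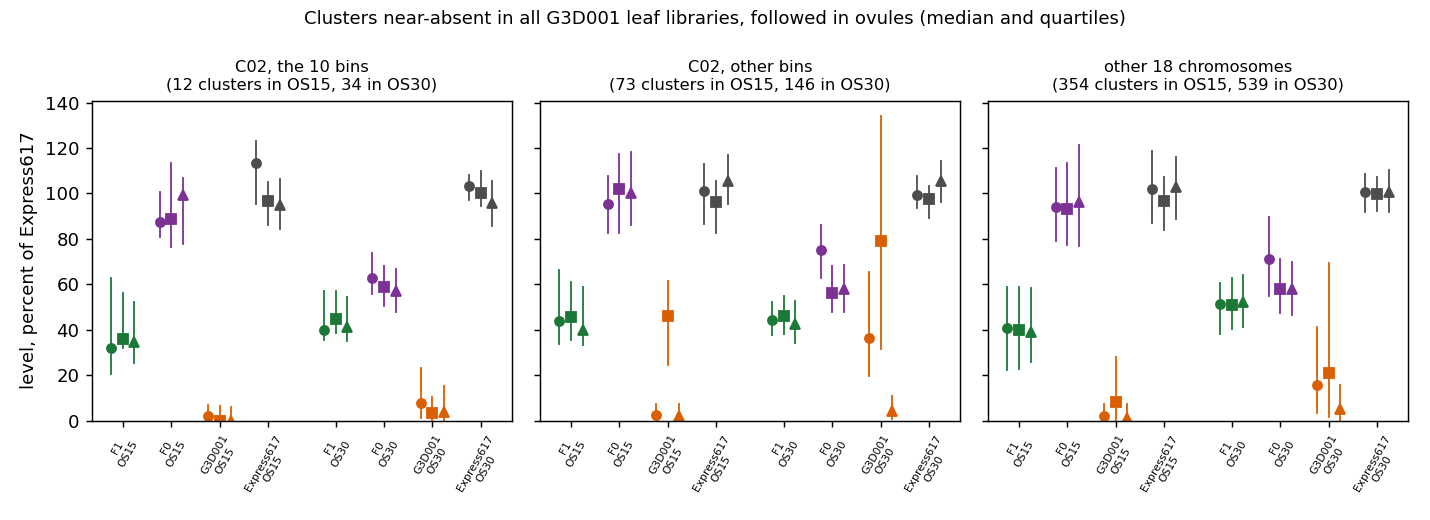
Level in percent of Express617 (vertical axis) of the clusters near-absent in all 3 G3D001 leaf libraries, by genotype in OS15 and OS30, for C02 inside the 10 bins, C02 outside them and the other 18 chromosomes. Points are medians over clusters for 1 library and lines run between the quartiles. G3D001 replicate 2 (square) reaches 46.1% in OS15 and 79.1% in OS30 in the other C02 bins. It stays at 3.17% or less in the 10 bins, which were chosen on OS30 G3D001 levels. The OS30 G3D001 percentages depend on the scaling of those libraries.

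Single clusters were compared within trios (the hybrid with both parents, 1 stage) by edgeR's quasi-likelihood test, adjusted over all clusters tested. The libraries were pools of plants, so the p-values measure the spread between pools. In leaves, 1649 of 4956 C02 clusters were lower in G3D001 than in Express617 (33.3%, while 10.5% of all clusters were), and 155 were higher (3.13%, against 6.02%). In OS15, 1254 of 5007 were lower (25.04%, against 9.75%) and 230 higher (4.59%, against 8.15%). In OS30, 2671 of 5031 were lower (53.1%, against 28.8%) and 795 higher (15.8%, against 30.9%). The median log2 fold change over all C02 clusters tested was -1.38, -0.99 and -0.99 in the 3 stages, beside -0.06, -0.01 and -0.01 over all clusters. Scaled to total counts, the OS30 split became 4413 lower and 189 higher on C02, beside 71651 lower and 5402 higher of all 91053 clusters.

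The F1 was lower than Express617 at 214 C02 clusters in leaves (2.05% of all clusters were lower), 198 in OS15 (1.7%) and 1735 in OS30 (9.07%). It was higher than G3D001 at 981 (5.31% of all), 492 (5.22%) and 1615 (26.0%). Several of these counts changed when 1 library was left out. In OS15 and OS30 the count of lower clusters fell whichever F1 library was left out, so those falls do not point at a single library. In leaves, 121 or 127 clusters were lower without F1 replicate 2 or 3. In OS15, 92, 123 or 125 were lower without F1 replicate 1, 2 or 3, 129 or 116 without Express617 replicate 1 or 2, and 369 without G3D001 replicate 2. The OS15 count above G3D001 became 324 without G3D001 replicate 1 and 866 without replicate 2. In OS30, 1078, 1078 or 1024 were lower without F1 replicate 1, 2 or 3, and 1088 without Express617 replicate 2.

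The F0 was lower than Express617 at 0 C02 clusters in OS15 (0.0055% of all clusters were lower) and at 226 in OS30 (1.82%). DESeq2 also found 0 in OS15, where 3674 of all 90944 clusters had an unadjusted p under 0.05 in either direction. Without G3D001 replicate 2 the OS15 count was 1. The OS30 count was 373, 37 or 60 without F0 replicate 1, 2 or 3, 60, 57 or 55 without Express617 replicate 1, 2 or 3, and 423 or 467 without G3D001 replicate 2 or 3, so that its size is poorly known. The F0 was higher than G3D001 at 1346 C02 clusters in OS15 (10.7% of all) and 1887 in OS30 (24.5%). These comparisons share libraries of the parents. Between the hybrids, 392 C02 clusters differed in OS15 (6.16% of all clusters), 163 of them higher and 229 lower in F1. In OS30, 99 differed (1.69% of all), 53 higher and 46 lower in F1, and the count was 62, 65 or 64 without F1 replicate 1, 2 or 3 and 149 or 172 without G3D001 replicate 2 or 3.

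The reads of C02 were concentrated in a few clusters. The 5 most read ones took 34.2 to 73.5% of the C02 counts of an OS15 library and 16.7 to 46.9% of an OS30 library, but 2.44 to 11.8% of a leaf library. Their values are CPM, read counts scaled to a common TMM-adjusted library size. Cluster_40653 (C02:48354026-48355418), the most read, had 3757, 4842 and 6195 CPM in OS30 F1, 4352, 4865 and 4294 in F0, 16080, 17680 and 12180 in G3D001, and 3538, 2978 and 4324 in Express617. All 3 G3D001 values exceeded all other OS30 values, with a log2 fold change of 2.08 ± 0.21 (SE) over Express617 (edgeR adjusted p = 8.12e-07). Scaled to total counts this was 0.04 (adjusted p = 0.791). Cluster_40803 (C02:50067022-50068732) was under 0.5 CPM in every leaf library. In OS30 it reached 1327, 1381 and 1697 CPM in F1, 718.8, 738.1 and 580.8 CPM in F0 and 15260, 13140 and 15760 CPM in G3D001, against 753, 719.6 and 619.3 CPM in Express617, so that the F1 lay between its parents.

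Cluster_40772 (C02:49640446-49642108) showed the disagreement of the G3D001 pools in single values. In OS15 it had 4547, 3660 and 4258 CPM in F1, 5729, 6194 and 5859 CPM in F0 and 6.47, 4402 and 8.42 CPM in G3D001, against 5536, 5745 and 5730 CPM in Express617. In OS30 it had 7242, 16280 and 14.2 CPM in G3D001, against 798, 766 and 759.7 CPM in Express617. The raw OS30 counts were 64859, 89644 and 127 in G3D001, against 20024, 19462 and 19811 in Express617, so the size of the difference depends on the scaling. The calls for this cluster depended on the pool. In OS15 the log2 fold change was -1.95 ± 0.91 (SE, edgeR adjusted p = 0.149), and -9.57 (adjusted p = 1.1e-95) without G3D001 replicate 2. In OS30 it was 3.34 ± 1.12 (adjusted p = 0.0172), and 2.23 (adjusted p = 0.0683) without G3D001 replicate 2. Without Express617 replicate 1, 2 or 3 the OS30 adjusted p was 0.0531, 0.0562 or 0.0568.

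Cluster_37840 (C02:14851877-14852794) had the smallest adjusted p among the leaf clusters lower in G3D001. The leaf F1 was between its parents at 56.7, 56.7 and 44.0 CPM. The cluster had 0 counts in all 3 G3D001 leaf libraries, against 122.9, 91.9 and 94.4 CPM in Express617, and was therefore at least 1519-fold lower (floor of 3 counts over the 3 libraries; edgeR adjusted p = 4.93e-30). In the ovules the same cluster followed the pools, with 0.16, 41.3 and 0.06 CPM in OS15 G3D001 and 99.6, 147.1 and 0.78 CPM in OS30 G3D001, against 98.3, 93.1 and 85.0 CPM in OS30 Express617. The raw OS30 counts were 892, 810 and 7 in G3D001, against 2466, 2366 and 2217 in Express617. The OS30 CPM of G3D001 replicates 1 and 2 thus rest on the low scaling factors of that group. Cluster_37643 (C02:12285979-12287376), in the run from 10 to 13.5 Mb, had 27.5, 28.9 and 32.0 CPM in OS30 F1 and 139.1, 147.7 and 172.6 CPM in OS30 F0. It was low in every OS30 G3D001 library at 0.22, 0.18 and 0.11 CPM, against 163.6, 152.0 and 151.7 CPM in Express617 (log2 fold change -9.78 ± 0.33, SE, edgeR adjusted p = 1.51e-11). The F0 values there overlapped those of Express617, and the F1 values did not.

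Cluster_36731 (C02:1593457-1594657), in the run from 0.5 to 6 Mb, had 2019, 1492 and 1879 CPM in OS15 F1 and 2395, 2711 and 2250 CPM in OS15 F0. It had 5.90, 6.41 and 7.57 CPM in OS15 G3D001, against 2285, 2427 and 2155 CPM in Express617 (log2 fold change -8.43 ± 0.22, SE, edgeR adjusted p = 7.46e-26). Both hybrids were far closer to Express617 than to G3D001. Cluster_39464 (C02:35554377-35555504) was its counterpart in the other direction. It had 486.3, 585.4 and 403.7 CPM in OS15 F1 and 1.18, 0.69 and 0.91 CPM in OS15 F0. It had 953.5, 900.8 and 911 CPM in OS15 G3D001, against 1.12, 1.37 and 1.295 CPM in Express617 (log2 fold change 9.51 ± 0.26, SE, edgeR adjusted p = 2.28e-25). In OS30 it had 8.20, 9.36 and 9.49 CPM in F0 and 3185, 4269 and 3145 CPM in G3D001, against 9.76, 8.66 and 9.16 CPM in Express617. Cluster_39464 lies in the bin from 35 to 36 Mb, which is low in OS30 by the median over its clusters, so that single clusters there ran against that median. At Cluster_39464 the F0 was near the maternal level at both ages.

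**Figure D5:**
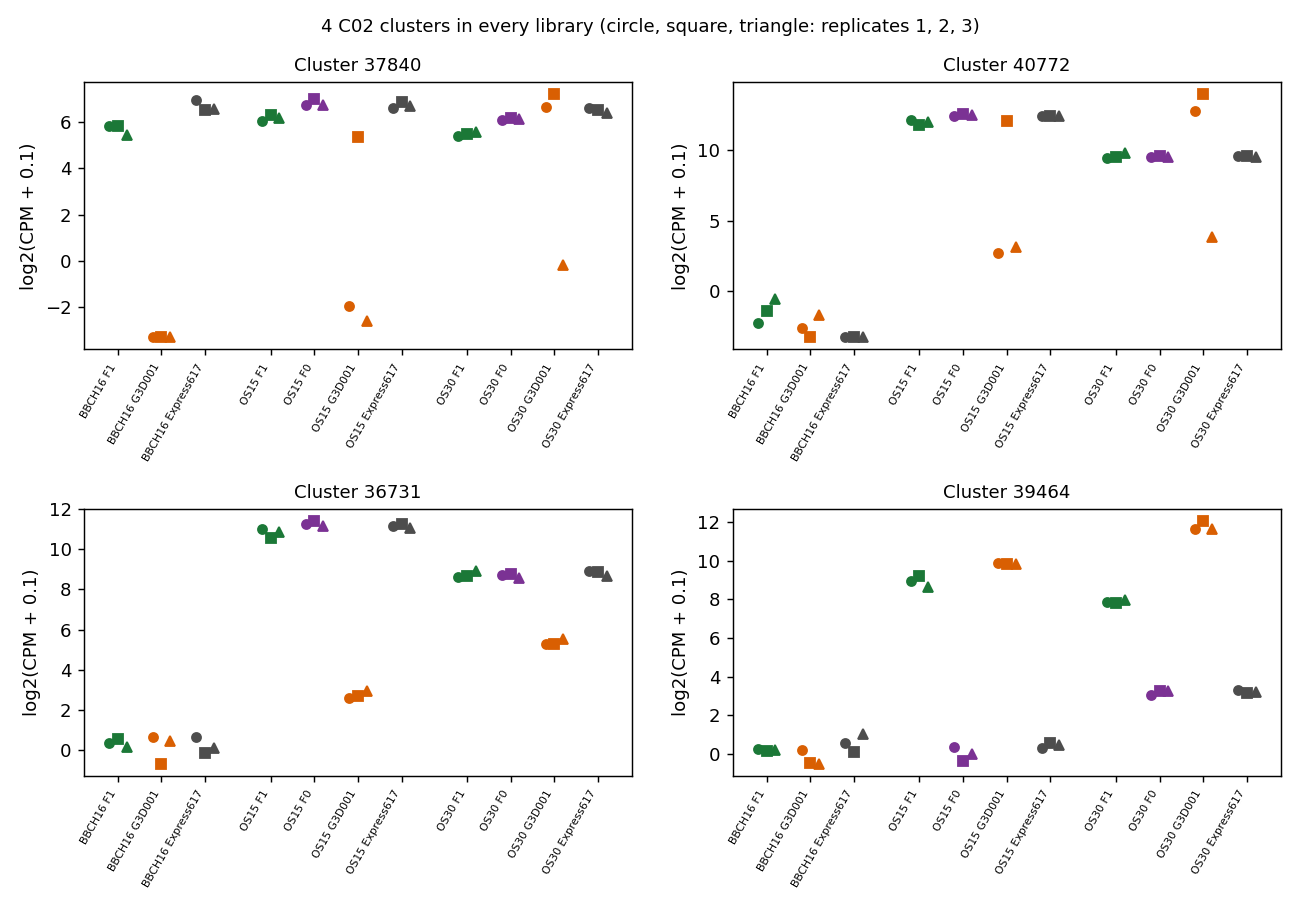
Level of 4 C02 clusters in every library, as log2(CPM + 0.1) on the vertical axis, by stage and genotype on the horizontal axis; circles, squares and triangles are replicates 1, 2 and 3. Cluster_37840 and Cluster_40772 split the G3D001 ovule pools (6.47, 4402 and 8.42 CPM in OS15 for Cluster_40772), whereas Cluster_36731 and Cluster_39464 separate all G3D001 ovule libraries from Express617.

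Clusters without a single count in all 9 G3D001 libraries numbered 49 on C02 and 221 on the other 18 chromosomes together, which hold 5031 and 78616 clusters. For Express617 the numbers were 4 and 49, and for F1 0 and 2. The 5 such C02 clusters with the most Express617 reads were Cluster_36782 (C02:2346979-2347258), Cluster_36732 (C02:1594990-1595552), Cluster_36812 (C02:2588088-2588271), Cluster_40779 (C02:49777413-49777916) and Cluster_40683 (C02:48591380-48591507). Cluster_36782 had 4.22, 3.91 and 3.202 CPM in OS15 F1 and 10.1, 12.2 and 15.3 CPM in OS15 F0. It was at least 183.5-fold lower in OS15 G3D001 than in OS15 Express617, which had 8.52, 14.0 and 9.37 CPM, and it had no count in Express617 leaves. Cluster_36812 had 3.40, 3.44 and 1.43 CPM in OS30 F1 and 2.52, 2.05 and 1.98 CPM in OS30 F0. It was at least 95.8-fold lower in OS30 G3D001 than in OS30 Express617, which had 12.2, 13.6 and 11.04 CPM. Both hybrids were thus below the mother at this cluster in OS30. In OS15, at far fewer counts, it had 0, 0.07 and 0 CPM in F1 and 0.84, 1.09 and 0.91 CPM in F0, against 0.76, 0.48 and 0.62 CPM in Express617. Each of these bounds uses a floor of 3 counts over the 3 libraries and covers counting error only.

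Among the C02 clusters that were higher in G3D001 in every stage, 3 were named for the level they kept. Cluster_37059 (C02:5456078-5457060) had 21.1, 19.9 and 20.8 CPM in F1 leaves and 49.7, 37.4 and 43.8 CPM in G3D001 leaves, against 0.30, 0.43 and 0.42 CPM in Express617 (log2 fold change of G3D001 over Express617 6.81 ± 0.35, SE, edgeR adjusted p = 1.97e-24). In OS30 it had 0.74, 0.94 and 0.75 CPM in F0, against 0.92, 0.59 and 0.58 CPM in Express617. Cluster_37006 (C02:4845095-4845637) had 39.7, 35.8 and 35.2 CPM in G3D001 leaves, against 6.94, 1.48 and 3.24 CPM in Express617. Both lie in the run from 0.5 to 6 Mb. Cluster_40853 (C02:50408472-50409793) lies in the high bin from 50 to 51 Mb and had 17.2, 17.3 and 14.4 CPM in OS30 G3D001, against 9.88, 10.8 and 9.59 CPM in Express617 (log2 fold change 0.69 ± 0.19, SE, edgeR adjusted p = 0.00575). Scaled to total counts, its OS30 value was -1.34.

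Of the C02 clusters at which a hybrid was above both parents, those with the smallest p were named. Cluster_37180 (C02:6844696-6845669) had 14.2, 14.9 and 17.5 CPM in OS15 F1, against 0.05, 0.12 and 0.06 CPM in G3D001 and 0.82, 1.65 and 1.61 CPM in Express617. It was higher in F1 than in Express617 by 3.51 ± 0.31 and than in G3D001 by 7.51 ± 0.44 on the log2 scale (SE, edgeR adjusted p = 5.36e-11 and 9.46e-16), while the F0 stood at 1.18, 1.77 and 1.81 CPM. Cluster_40741 (C02:49344450-49346067) had 16.5, 14.7 and 15.6 CPM in OS30 F1 and 10.95, 13.2 and 16.9 CPM in F0, against 3.57, 4.54 and 4.90 CPM in G3D001 and 0.96, 0.91 and 0.81 CPM in Express617. The excess over Express617 was 4.12 ± 0.21 in F1 (SE, edgeR adjusted p = 6.79e-09) and 3.94 ± 0.25 in F0 (adjusted p = 1.42e-06), and that over G3D001 was 1.85 ± 0.19 in F1 (adjusted p = 1.61e-06) and 1.65 ± 0.23 in F0 (adjusted p = 5.81e-05).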

How the data were processed

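Small RNA libraries were made from leaves and ovules pooled from several plants, and the authors removed short reads with seqtk and aligned the rest to the Express617 assembly with ShortStack, which also defined the clusters. The handling of reads with several positions is not given in the sources used here. The deposited table holds raw counts per cluster and library, and no column of it was without a sample. Entries given as sequences without a position (10201, with 2.33 to 10.1% of the counts of a library) entered no chromosome. Clusters and lists were chosen with earlier results of these data known. Clusters and 1 Mb bins (by cluster midpoint) were tested with edgeR 4.0.16 (quasi-likelihood, TMM factors, R 4.3.3) within each trio, or over the 12 libraries of a stage for F1 against F0, and called at an adjusted p under 0.05 over all features tested. DESeq2 1.42.0 was an alternative, and the scripts were tested on simulated data. Levels used a pseudocount of 0.1 CPM, a mean of at least 20 counts and at least 10 clusters per bin (Python 3.11.15, pandas 2.3.3, numpy 2.4.6, matplotlib 3.10.9).

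Named clusters were the 5 most read, the smallest p per stage and direction between the parents without overlap, the 5 highest in Express617 with 0 counts in G3D001, the 3 highest in G3D001 among those higher in every stage, and per hybrid and stage the smallest p above both parents. Replicate numbers of G3D001, Express617 and F1 carry the same plot code in every stage. Of 45 pairs of same-numbered libraries, 15 deviated together with r over 0.1 (range -0.15 to 0.54). All 3 pairs did so for G3D001 and Express617 in leaves and for F0 and Express617 in OS15 and OS30, and the numbers were taken to pair the libraries in those comparisons alone.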

Additional observations from a re-analysis of the deposited data

Results flagged for a closer look

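In 2 bins of C02 all 3 G3D001 libraries of a stage moved one way and all 3 of another stage the opposite way, and the difference between the stages was not tested. In the bin from 5 to 6 Mb the mean relative level of G3D001 was 1.05 in leaves (23 clusters), -1.08 in OS15 and -1.15 in OS30 (79 clusters). Over the 16 clusters of that bin that passed the count filter in both leaves and OS30, the levels were -1.68, -0.48 and -0.77 in leaves and 1.35, 1.86 and 0.39 in OS30, so that the direction within each stage turned when the same clusters were compared. Such clusters also stood higher in OS30 in other bins of C02 and on the other chromosomes, where their medians in G3D001 were 0.47, 0.56 and 0.46 (11023 clusters). In the bin from 29 to 30 Mb the mean was -0.31 in leaves and 0.35 in OS15.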

How the results depend on the processing

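Counts of C02 clusters lower in G3D001 kept within 1.5 times of their value except with a minimum of 10 counts in at least 3 libraries (1055 in leaves, 750 in OS15), where fewer clusters were tested, and with total-count scaling in OS30 (4413, beside 71651 of all 91053 clusters). Counts higher in G3D001 moved to 100 with DESeq2 in leaves and 189 with total counts in OS30. F1 below Express617 moved to 59 in leaves and 392 in OS15 with total counts, 126 in OS15 with DESeq2, and 1089 in OS30 at a log2 fold change of at least 1. F1 above G3D001 moved to 639 in leaves with DESeq2 and to 307 (OS15) and 4238 (OS30) with total counts. F0 below Express617 in OS30 was 434 with DESeq2 and 467 in 1 fit of the stage (in leaves such a fit is the trio itself), F0 above G3D001 was 4391 with total counts, and F1 against F0 in OS30 was 157 with DESeq2. Lower bins were 108, 71 and 53 of 124 at 0.5 Mb and 26, 18 and 5 of 31 at 2 Mb in leaves, OS15 and OS30, and in OS30 50 with library totals (542 of all 776 bins) and 40 with TMM factors of the bin table (393 of all 776 bins), an alternative chosen after seeing the data. The cause of these changes was not tested.

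Relative levels kept their sign. For F1 in leaves they became -0.38 and -0.33 at pseudocounts of 0.5 and 1, -0.35 at 50 counts and -0.072 for summed CPM without the 10 top clusters; for G3D001 in leaves -0.74, -0.63, -1.19 (5 counts), -0.46 (50 counts) and -0.22; for F1 in OS15 -0.26, -0.22, -0.39, -0.35 and -0.52; for F1 in OS30 -0.52, -0.44, -0.66 (50 counts) and -0.30; and for F0 in OS30 -0.26 (pseudocount 1) and -0.074. Bins under the limit in all G3D001 libraries became 19, 21 and 19 at a limit of -0.5 and 3, 2 and 0 at -2 (leaves, OS15, OS30), 2 (leaves) and 26 (OS30) at 0.5 Mb, 2 (OS15) and 5 (OS30) at 2 Mb, and 44 in leaves at 5 counts. Near-absent clusters in leaves became 23.005% at a limit of 5%, 47.4% at 25% and 22.4% at 50 counts, and 32.5% in OS30 at 25%.

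Leaving out 1 library at a time gave these ranges, in leaves, OS15 and OS30 in turn. Lower in G3D001 were 1423 to 1647, 901 to 1580 and 2323 to 2922 clusters. Higher in G3D001 were 123 to 151, 184 to 232 and 716 to 872 clusters. F1 below Express617 were 121 to 281, 92 to 369 and 1024 to 2344 clusters. F1 above G3D001 were 738 to 1026, 324 to 866 and 1271 to 1926 clusters. F0 below Express617 were 0 to 1 and 37 to 467 in OS15 and OS30. F0 above G3D001 were 989 to 1708 and 1502 to 2186 in OS15 and OS30. F1 against F0 gave 276 to 574 and 62 to 172. Lower bins were 50 to 56, 24 to 42 and 16 to 23, and bins under -1 were 10 to 12, 7 to 24 and 10 to 21, the highest of the last 2 without G3D001 replicate 2. Levels of C02 were -0.44 to -0.42, -0.33 to -0.27 and -0.64 to -0.61 in F1, 0.01 to 0.02 and -0.37 to -0.35 in F0 and -0.97 to -0.77, -1.17 to -0.79 and -1.19 to -0.65 in G3D001, with Express617 or G3D001 libraries left out. Near-absent clusters were 30.4 to 31.8%, 26.0 to 37.6% and 11.4 to 19.8%, the highest in OS15 without G3D001 replicate 2 and the lowest in OS30 without G3D001 replicate 3. Leaving out G3D001 libraries for these shares was chosen after seeing the data.

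Directions that reversed were those of Cluster_40375 in OS30 (-0.30) and Cluster_40853 in OS30 (-1.34, adjusted p = 1.38e-05 by edgeR) with total counts, of Cluster_40375 in OS15 without G3D001 replicate 1 (0.091, from a range of -1.98 to 0.091 over libraries left out) and of Cluster_40617 in leaves without Express617 replicate 3 (0.28, from a range of -0.81 to 0.28). The paired differences in level from Express617, also chosen after seeing the data, averaged -0.85 in leaf G3D001 and, in F0, 0.0073 in OS15 and -0.37 in OS30. With the replicate number as a block, lower clusters in G3D001 numbered 1629, 1347 and 2611 in the 3 stages and F0 below Express617 174 in OS30, and no count of C02 clusters or bins moved by over 1.5 times. The pairing changed calls of named clusters only in comparisons where the numbers were not taken to pair the libraries, except Cluster_40803 in leaves (adjusted p = 0.0539 by edgeR). At under 0.5 CPM in leaves, that cluster is too shallow to compare, and depth limits the leaf levels to the 612 C02 clusters with enough counts.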

Other observations

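The level of C02 clusters in G3D001 differed between length classes. C02 clusters over 3000 bp were the lowest length class, at -2.31, -2.71 and -2.65 in the 3 leaf libraries (16 clusters) and at -1.31, -0.59 and -2.83 in OS30 (189 clusters), whereas C02 clusters of up to 100 bp stood at -0.48, -0.24 and -0.44 in leaves (20 clusters) and 0.04, 0.06 and -0.54 in OS30 (98 clusters). On the other chromosomes the clusters over 3000 bp were at 0.15, 0.17 and 0.17 in OS30. The pools kept their order in the long class, with replicate 2 the highest and replicate 3 the lowest in OS30 and replicate 2 the highest in OS15 (-2.18, -0.65 and -2.61, 26 clusters). These are values with no test, and the classes differ in how many clusters they hold.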
